A study of Mus musculus with 6 samples.

Results

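Immune checkpoint and inhibitory receptor genes were followed through the immune cells of brains that carry a human glioma graft. The 10 members, chosen by gene symbol, were Cd274, Lag3, Havcr2, Vsir, Sirpa, Cd47, Lilrb4a, Tigit, Cd72 and Cd52, out of 31053 genes in the count matrix, and all 10 were found in it. CD45+ cells had been sorted from the tumor-bearing hemisphere of female SCID mice, and their 3′ RNA was counted on the 10x Chromium platform, which tags each transcript with a cell barcode and a unique molecular identifier (UMI). Of the 6 mice, 3 carried U87 cells, an established human glioma line, that express IL-33 and were taken at 3 weeks, and 3 carried U87 cells with the pcDNA control vector and were taken at 6 weeks. The labels give an age of 6 to 8 weeks and the protocol 8 weeks at implantation. All 6 mice share the SCID background, which lacks mature T and B lymphocytes, so the host immune cells are mainly myeloid cells and natural killer (NK) cells. The matrix joins 6 libraries as barcode suffixes 1 to 6. No GEO label ties a suffix to a mouse, and suffixes were not assigned to mice by their numbers of barcodes, so the matrix was treated as 1 pooled sample. IL-33 and control mice were not compared, and no p-value was computed.

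Checkpoint molecules pair ligands with receptors that dampen immune cells. Cd274 encodes PD-L1, a ligand that restrains T cells, and Cd47 encodes the "do not eat me" ligand that binds SIRPα (Sirpa) on phagocytes. Vsir encodes VISTA, Lag3 and Havcr2 (TIM-3) are best known from exhausted T cells, and Tigit is a receptor of T and NK cells. Lilrb4a and Cd72 carry inhibitory cytoplasmic motifs, and Cd52 encodes a short glycoprotein of the leukocyte surface. Microglia, the resident macrophages of the brain, express several of these genes although they are not lymphocytes.

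A barcode was kept if it had more than 200 genes, no more than 2500, and less than 5% of its UMIs on mitochondrial genes, which left 38751 of 40411. The 6 suffixes held 9745192 to 24393841 UMIs each. Barcode sequences were also compared between suffixes, a step added after the data were seen. Of these sequences, 3890 occurred under more than 1 suffix, 490 under all 6. These shared sequences made up 14489 of the 38751 kept barcodes (37.4%, and 21.3 to 52.1% of a suffix). They were shallow, with a median of 927 UMIs against 3117 for sequences under 1 suffix. For the 15 pairs of suffixes, the median correlation of expression between barcodes with the same sequence was 0.44 to 0.55 over 2000 genes, against 0.33 to 0.37 when each was set beside the next shared sequence instead. Log10 UMI totals of barcodes with the same sequence correlated at 0.22 to 0.91, and the pairs set beside them were not matched for depth. How much of the difference between these correlations of expression comes from depth was not tested. What joins these barcodes was not tested. Whether barcodes of the same sequence are separate cells was not tested. Member levels in gates that rest on them are therefore given with all kept barcodes and with the 24262 barcodes whose sequence occurs under 1 suffix. Partners of the members, genes with a like pattern and shares of cells are given over all kept barcodes only.

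Groups of cells were gated on marker genes that hold no member. A barcode entered a gate through a minimum of UMIs on the gate's markers, and microglial states also asked for microglial markers (Tmem119, Gpr34, Olfml3, P2ry12, Cx3cr1, Selplg), except the Spp1 gate. There were 17916 homeostatic microglia, which passed no state gate and held under 1% of their UMIs on Spp1, Apoe and Lyz2. The 7 states were an MHC class II gate (302 cells), an interferon gate (351), a Ccl2 and Ccl12 gate (1577), a Lpl and Fam20c gate (878), a Spp1 gate (1441, on Spp1, Apoe and Lyz2), a cycling gate (511) and a Ddit4 gate (1512, on Ddit4 and Tsc22d3). The other 4 were granulocytes (115), NK cells (217), monocytes (215) and a gate on dendritic cell genes named for Cd209a (154), of which granulocytes, monocytes and the Cd209a gate are called recruited cells here. A further 291 choroid plexus-like barcodes, gated on Ttr, Enpp2, Clu and Igfbp2, served as background. A further 11253 microglial barcodes reached that 1% but passed no state, 1393 passed several states and 623 passed no gate, and these enter no comparison. From 4.35% (granulocytes) to 77.3% (Ddit4 gate) of a gate's cells lay within 1.5 times of a limit, so the gates are ranges and not sharp types. Per 1000000 UMIs of a gate (CPM), the 6 T cell markers summed to at most 1.96 in the microglial gates, 43.0 in NK cells and 111.6 in granulocytes, where all of it was Cd3d. The 6 microglial markers summed to 6975 CPM in the Spp1 gate, 6624 CPM in granulocytes and 9207 to 15807 CPM in the other microglial gates. Since the Spp1 gate asked for no microglial marker, it can hold cells other than microglia. Where the 7 states are called microglial, this limit applies to the Spp1 gate. The 6 monocyte markers summed to 6586 CPM in the Cd209a gate and 6546 CPM in monocytes. The 6 markers of the Cd209a gate summed to 3039 and 454.5 CPM in the same 2 gates. A barcode that met the limits of both went to the Cd209a gate, so these 2 gates are not separate by monocyte markers. Gata3, a factor of group 2 innate lymphoid cells that NK cells can also express, had 76.0 CPM in the NK gate, while the other 4 markers of those cells were at 0 there.

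Shared sequences were spread unevenly over the gates. They made up 96.2% of the Ddit4 gate and 77.2% of the Spp1 gate, 27.9% each of the interferon gate and the Lpl and Fam20c gate, 13.8% of homeostatic microglia, and 4.61 to 11.6% of the other gates. The Ddit4 gate kept 57 cells without them and the Spp1 gate 329. The 1112 shared barcodes of the Spp1 gate held 437 distinct sequences, and the 1455 of the Ddit4 gate held 865. Suffixes may therefore not be independent in these gates, which weakens agreement between suffixes there. Among the members, Havcr2 stood at 294.8 CPM over all kept barcodes with a shared sequence and at 135.2 CPM over the others, whereas Cd72 stood at 35.5 and 93.3 CPM. Ratios of members to homeostatic microglia lay close to each other with and without shared sequences in most gates, and moved most in the Ddit4 and Spp1 gates.

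**Figure D1:**
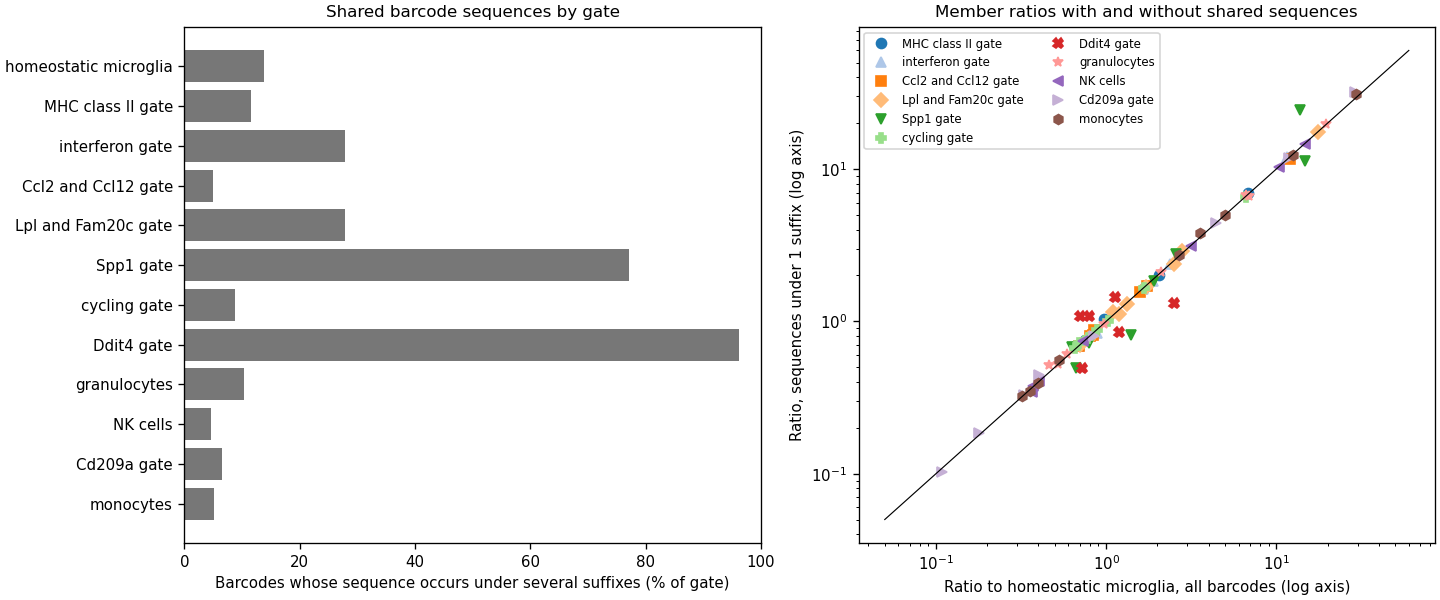
Left, the percentage of each gate's barcodes whose sequence occurs under several suffixes, from 4.61% in NK cells to 96.2% in the Ddit4 gate. Right, the ratio of each member's CPM to homeostatic microglia with all barcodes (x axis) and with sequences under 1 suffix (y axis), both on log axes, 1 point per member and gate with at least 10 CPM on either side and over 3 UMIs; the points farthest from the diagonal belong to the Ddit4 and Spp1 gates.

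Levels are given as CPM, the UMIs of a gene per 1000000 UMIs of all genes in the gate, with an exact Poisson 95% interval that covers counting error only. A member was called in a gate if its pooled CPM differed at least 2-fold from homeostatic microglia and lay on the same side in every suffix with at least 20 cells of the gate, and it was counted among the members tested if it reached 10 CPM on either side. In bulk sums of this kind, fewer expressing cells and less RNA per cell cannot be told apart. Levels of different genes were not compared with each other. Gates draw on the suffixes in unequal shares, while the pooled homeostatic level holds all suffixes. A pooled ratio can therefore differ from the ratio within a suffix, above all for Cd72, whose homeostatic level varied between suffixes. Over all kept barcodes 7 members lay at 82.9 CPM or more (Vsir 1085, Sirpa 670.3, Lag3 406.3, Cd52 228.6, Havcr2 163.8, Cd47 156.9 and Cd72 82.9 CPM). The other 3 had low counts, with 7.32 CPM for Lilrb4a, 4.98 CPM for Cd274 and a single UMI of Tigit. The Lilrb4a level is uncertain because the gene has a near copy, as described below.

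**Figure D2:**
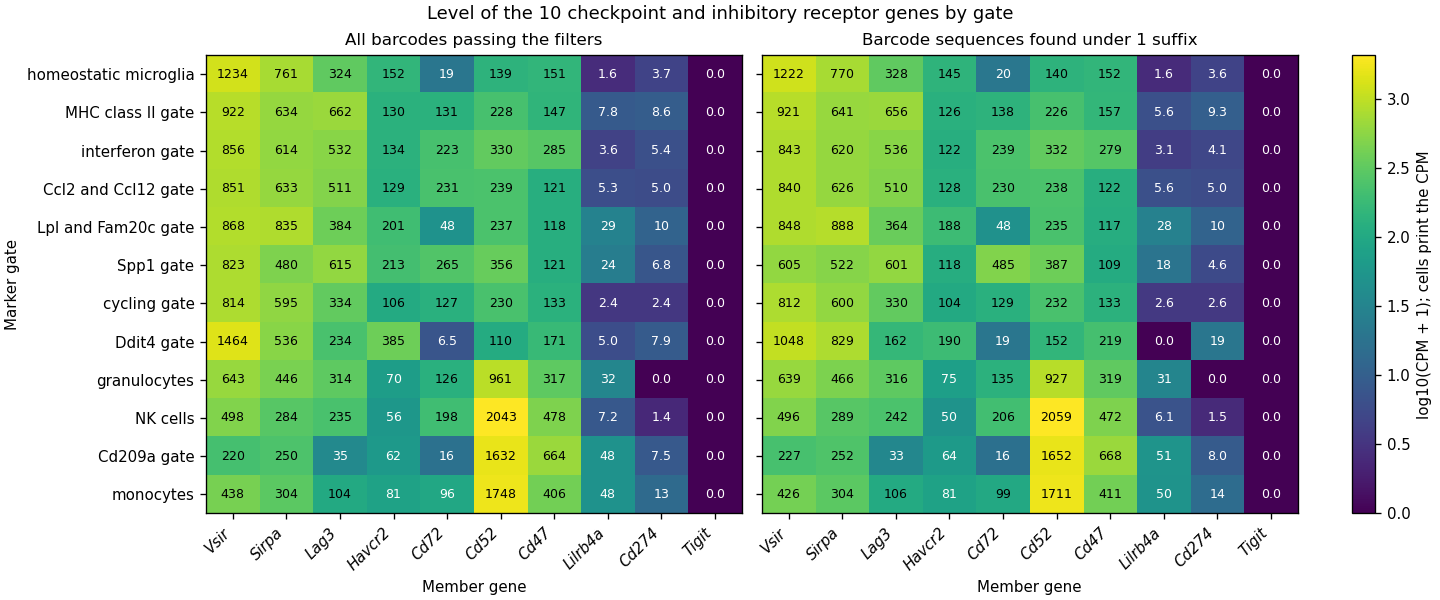
CPM of the 10 members (columns) in the 12 gates (rows), with all kept barcodes on the left and sequences under 1 suffix on the right; colour is log10(CPM + 1) and each field prints the CPM. Vsir and Sirpa are brightest in the microglial rows, Cd52 and Cd47 in the 4 rows of NK, Cd209a, monocyte and granulocyte gates, and Cd72 runs from 6.46 (Ddit4 gate) to 265.1 CPM (Spp1 gate) between the rows of the state gates on the left.

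Of the ligands, Cd274 stayed at 13.1 CPM or less in all 12 gates with all kept barcodes. The gene lies on chr19:29367455-29388095 on the plus strand (GRCm38, GENCODE M21). Homeostatic microglia held 184 Cd274 UMIs in 17916 cells, or 3.69 CPM (3.18 to 4.26), with 2.11, 3.47 and 6.38 CPM as the lowest, median and highest of the 6 suffixes. The Lpl and Fam20c gate reached 10.3 CPM (6.73 to 15.1), a ratio of 2.79 (1.78 to 4.22) and higher in 6 of 6 suffixes. Suffixes of that gate ran from 5.02 to 28.9 CPM around a median of 7.41, and rest on 26 UMIs in all. The call was kept without shared sequences (2.89, 1.76 to 4.51, higher in 6 of 6), and ended with stricter gates, where 1 of 5 suffixes was lower. It also ended without suffix 3 (2.82), without suffix 5 (2.16) and without the top Scrublet scores (2.46), since the level then lay below 10 CPM. Monocytes held 13.1 CPM from 12 UMIs (ratio 3.55, 1.80 to 6.36), with a lowest of 7.61 and a median of 10.0 CPM over their 3 suffixes, all above homeostatic microglia of the same suffix. The MHC class II gate had 8.64 CPM from 10 UMIs (2.34, 1.10 to 4.41), under the 10 CPM limit. The interferon gate held 6 Cd274 UMIs, 5.38 CPM (1.97 to 11.7), a ratio of 1.46 with an interval of 0.528 to 3.23 and higher in 3 of 6 suffixes. In granulocytes 0 UMIs were found, with an interval up to 10.8 CPM. Interferon is a textbook inducer of Cd274, so the bases before its start are shown:
Cd274: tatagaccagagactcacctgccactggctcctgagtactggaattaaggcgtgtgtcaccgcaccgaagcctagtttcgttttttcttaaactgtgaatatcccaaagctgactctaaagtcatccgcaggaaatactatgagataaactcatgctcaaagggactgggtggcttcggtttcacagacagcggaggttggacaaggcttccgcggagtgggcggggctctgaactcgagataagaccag
The stretch is chr19:29367188-29367437, plus strand (RefSeq, GRCm38.p6), 5′ to 3′. None of the 3 motifs searched on both strands of these 250 bases was found in it, which says only that these letters are not in this window. The motifs were GAGGAA, the PU.1 box, held by 23.3% of 32851 windows of this kind; TTCNNNGAA, a gamma-activated site, held by 7.02%; and the interferon-stimulated response element, read as GAAA, 2 bases of any kind and GAAA, held by 2.98%.

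Cd47 (chr16:49800533-49915010, plus strand) was called higher than homeostatic microglia in all 4 gates of other cells and in no microglial state. Homeostatic microglia had 151.3 CPM (147.9 to 154.8), and their 6 suffixes ran from 145.2 to 164.3 CPM around 152.0. The Cd209a gate reached 664.2 CPM (608.8 to 723.3) with 616.9, 635.8 and 798.5 CPM in its 3 suffixes, a ratio of 4.39 (4.01 to 4.80). NK cells followed with 477.7 CPM (ratio 3.16, 2.82 to 3.52) and monocytes with 406.4 CPM (2.69, 2.41 to 2.98). In none of these 3 gates did a suffix overlap with homeostatic microglia. Granulocytes had 317.2 CPM (2.10, 1.72 to 2.54), and this call ended without suffix 6 (1.77), with stricter gates (1.96), with at least 1000 UMIs per barcode (1.87) and with no upper limit on genes (1.92). Among microglial states the interferon gate stood at 285.1 CPM (254.6 to 318.2), 219.1 to 375.5 over 6 suffixes with a median of 285.9, all above homeostatic microglia. Its ratio of 1.88 (1.68 to 2.11) stayed under 2-fold, was 1.84 without shared sequences, and passed with stricter gates (2.10) and without suffix 6 (2.04).

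Sirpa (chr2:129592835-129632228, plus strand), the receptor of CD47 on myeloid cells, ran the other way. Homeostatic microglia had 761.0 CPM (753.3 to 768.6; suffixes 702.5 to 862.1, median 755.0). The Lpl and Fam20c gate was slightly above it with 835.1 CPM, a ratio of 1.10 (1.05 to 1.15) and higher in 6 of 6 suffixes, and 1.15 (1.10 to 1.21) without shared sequences. The other microglial states lay between 479.9 CPM (Spp1 gate) and 634.5 CPM (MHC class II gate), none past 2-fold. Monocytes had 303.7 CPM (ratio 0.399, 0.353 to 0.449), NK cells 284.0 CPM (0.373, 0.323 to 0.429) and the Cd209a gate 249.9 CPM (0.328, 0.284 to 0.377), each lower in 3 of 3 suffixes. Granulocytes, with 446.5 CPM (0.587, 0.497 to 0.688), were not past 2-fold. In the Ddit4 gate the direction turned without shared sequences, from 0.704 (0.654 to 0.757) to 1.08 (0.862 to 1.33).

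Vsir (chr10:60346851-60372684, plus strand) was lower in NK cells, monocytes and the Cd209a gate than in homeostatic microglia. Homeostatic microglia had 1234 CPM (1224 to 1244), with 1066 CPM in the lowest suffix, a median of 1226 and 1390 in the highest. Thinned to 500 UMIs per cell, 46.9% of these cells held a Vsir UMI (46.1 to 47.6%, exact binomial), 91.7% at full depth. The same share in choroid plexus-like barcodes, which should lack the gene, was 16.2% (12.1 to 20.9%). A share at or below that level was not told apart from background by this measure. Among NK cells 12.4% (8.36 to 17.6%) held a Vsir UMI and in the Cd209a gate 11.7% (7.08 to 17.8%), both at that level. Yet in the 125 cells of the Cd209a gate with under 1% microglial RNA, Vsir still had 226.9 CPM (191.4 to 267.2). Monocytes had 20.9% (15.7 to 27.0%) and granulocytes 29.6% (21.4 to 38.8%). By the same measure NK cells were not told apart from background for Sirpa (8.76% against 9.97%), nor the Cd209a gate for Lag3 (0.649% against 3.09%). Of the 291 choroid plexus-like barcodes, 41.6% held over 1% of microglial RNA as defined below, so their share is not a floor free of microglial RNA. Median depths were 2829 UMIs in homeostatic microglia and 1502 in choroid plexus-like barcodes. The MHC class II, interferon, Ccl2 and Ccl12, Lpl and Fam20c, and cycling gates lay at 814.1 to 921.5 CPM, ratios of 0.660 to 0.747 and lower in every suffix. The Spp1 gate had 823.4 CPM with all barcodes (0.667, 0.640 to 0.695) and 604.7 CPM without shared sequences (0.495, 0.461 to 0.531), where it passed 2-fold and was lower in 4 of 4 suffixes. Monocytes (438.1 CPM, ratio 0.355), NK cells (497.7 CPM, 0.403) and the Cd209a gate (219.7 CPM, 0.178, 0.153 to 0.207) were called lower. Granulocytes had 643.3 CPM (0.521, 0.454 to 0.595), were lower in 3 of 3 suffixes but not past 2-fold, and had 638.7 CPM without shared sequences, above the 604.7 CPM of the Spp1 gate. The Ddit4 gate had 1464 CPM (1.19) with all barcodes, but 1048 CPM (0.857, 0.704 to 1.03) in its 57 cells without shared sequences.

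Lag3 (chr6:124904361-124911705, minus strand) differed between microglial states. Homeostatic microglia had 324.0 CPM (319.0 to 329.0; suffixes 282.7 to 369.5, median 327.7). The MHC class II gate held 662.2 CPM (616.1 to 710.8), with 593.8 and 678.7 CPM in the 2 suffixes that had at least 20 cells of it, and 68.5% of the gate's cells came from suffix 1. Its ratio of 2.04 (1.90 to 2.20) lies on the limit, and it was 2.00 without shared sequences, 1.99 without suffix 1, 1.98 without suffix 2 and 1.93 as a mean of suffixes. Next came the Spp1 gate with 614.7 CPM (586.7 to 643.6), 517.3 to 694.6 over suffixes, a ratio of 1.90 (1.81 to 1.99) and 1.83 without shared sequences; it passed 2-fold with stricter gates (2.16) and without suffix 5 (2.00). The interferon gate had 531.6 CPM (1.64, 1.51 to 1.78) and the Ccl2 and Ccl12 gate 511.1 CPM (1.58, 1.52 to 1.64), both higher in 6 of 6 suffixes, and the latter passed with stricter gates (2.02). Among these 4 gates the suffix ranges overlapped, whereas every suffix of each lay above every suffix of homeostatic microglia. The cycling gate had 333.7 CPM (1.03, 0.953 to 1.11), an interval that includes 1. With cells thinned to 500 UMIs, 24.8% (20.1 to 30.1%) of the MHC class II gate and 2332 of 17916 homeostatic microglia (12.5 to 13.5%) held a Lag3 UMI, against 3.09% (1.42 to 5.79%) in choroid plexus-like barcodes. In monocytes Lag3 stood at 103.8 CPM (0.320, 0.259 to 0.392), a call that ended with no upper limit on genes (0.540). Monocytes with under 1% microglial RNA, as defined below, held 15.4 CPM of Lag3 from 7 UMIs. The Cd209a gate had 35.2 CPM, a ratio of 0.109 (0.0721 to 0.157).

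Havcr2 (chr11:46454935-46481255, plus strand) had 152.4 CPM (149.0 to 155.9) in homeostatic microglia, and the 6 suffixes lay between 145.6 and 159.0 CPM around a median of 152.3. The Lpl and Fam20c gate was above this in 6 of 6 suffixes with 200.8 CPM (183.7 to 219.0; suffixes 186.0 to 221.4), a ratio of 1.32 (1.20 to 1.44), and 1.30 (1.17 to 1.43) without shared sequences. With all barcodes no suffix of that gate overlapped with a suffix of homeostatic microglia, without shared sequences the ranges overlapped, and the ratio stayed under 2-fold. The Ddit4 gate had the highest Havcr2 level with all barcodes, 384.7 CPM (352.8 to 418.7) and 249.3 to 427.2 over 6 suffixes, a ratio of 2.52 (2.31 to 2.75). That call ended without shared sequences, with 190.5 CPM (116.4 to 294.2) from 20 UMIs and a ratio of 1.31 (0.802 to 2.03). It also ended with at least 1000 UMIs per barcode (2.23, lower in 1 of 5 suffixes), and the gate's median depth was 844 UMIs. In the Spp1 gate the direction turned, from a ratio of 1.40 (1.29 to 1.52) with all barcodes to 0.814 (0.689 to 0.956) without shared sequences, then lower in 3 of 4. Havcr2 was lower in NK cells (55.9 CPM, 0.367, 0.261 to 0.502) and in the Cd209a gate (61.5 CPM, 0.404, 0.298 to 0.534). In granulocytes it was called lower with all barcodes (70.5 CPM, 0.462, 0.296 to 0.689) and not without shared sequences (0.518), without suffix 2 (0.533) or with a mitochondrial limit of 10% (0.516). At 500 UMIs per cell, 3.78% (1.90 to 6.66%) of choroid plexus-like barcodes held a Havcr2 UMI. NK cells (0.922%), granulocytes (2.61%) and monocytes (3.26%) were below that share, and the Cd209a gate (3.90%, 1.44 to 8.29%) lay within its interval. Monocytes with under 1% microglial RNA, as defined below, still held 34 Havcr2 UMIs, 74.6 CPM (51.7 to 104.3). Those over 3% held 75.7 CPM, so the low share in monocytes is not read as absence.

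Tigit (chr16:43648867-43664146, minus strand) was found as 1 UMI in 1 of 38751 cells, a homeostatic microglia barcode. In the 217 NK cells, a cell type known to carry the receptor, 0 UMIs were counted, with an interval up to 5.29 CPM. No ratio was given for it.

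Cd72 (chr4:43446462-43454628, minus strand), an inhibitory receptor best known from B cells, was called higher in 5 of the 7 states. Homeostatic microglia had 19.2 CPM (18.0 to 20.4), with 9.36 CPM in the lowest suffix, 17.5 as the median and 44.8 in the highest, which was suffix 4. The Ccl2 and Ccl12 gate reached 231.1 CPM (218.7 to 244.0), with suffixes from 91.8 to 364.7 around 206.8, a ratio of 12.1 (11.1 to 13.1). All 6 suffixes of that gate lay above all 6 of homeostatic microglia, and 5.01% of its barcodes had a shared sequence. The interferon gate had 223.2 CPM (196.4 to 252.7; suffixes 51.2 to 417.0, median 171.8), a ratio of 11.6 (10.1 to 13.4), and 12.0 without shared sequences. In the Spp1 gate Cd72 stood at 265.1 CPM (246.9 to 284.3; suffixes 110.1 to 449.1), a ratio of 13.8 (12.6 to 15.2), and at 485.2 CPM and 24.4 (22.0 to 27.0) without shared sequences. There the 4 suffixes with enough cells ran from 299.7 to 606.8 CPM, all above homeostatic microglia. The ratio of 24.4 divides by the pooled homeostatic 19.88 CPM. Suffixes 4, 5 and 6 gave 113, 90 and 78 of the 329 cells, and their homeostatic microglia held 44.97, 24.94 and 28.39 CPM. Within each of these suffixes the ratio lies below 22.0, and within suffix 2 it lies inside the pooled interval. The MHC class II gate (131.4 CPM, 6.85, 5.74 to 8.14) and the cycling gate (127.2 CPM, 6.63, 5.76 to 7.62) were also called. The Lpl and Fam20c gate was not (47.9 CPM, 2.50, higher in 5 of 6) unless suffix 4 was left out (3.36). In the MHC class II gate, suffixes 1 and 2 held 116.5 and 212.1 CPM, against 9.36 and 12.4 CPM in their homeostatic microglia. The ratio within each of these suffixes is therefore above the pooled 6.85 and its interval. Of the gate's cells, 68.5% came from suffix 1, where homeostatic Cd72 was lowest. Cd72 also differed between suffixes within a gate. Homeostatic microglia held 9.36, 12.4, 9.72, 44.8, 22.5 and 27.6 CPM in suffixes 1 to 6. Since suffixes were not assigned to mice, treatment, time of collection, mouse and library cannot be told apart in this spread. Over all kept barcodes suffixes ran from 26.8 to 158.2 CPM. With the limit of 500 UMIs per cell, 9.13% (7.75 to 10.7%) of the Ccl2 and Ccl12 gate and 0.781% (0.658 to 0.921%) of homeostatic microglia held a Cd72 UMI, against 0.687% (0.0833 to 2.46%) in choroid plexus-like barcodes. The homeostatic share lies within the interval of the background share, and the pooled level of choroid plexus-like barcodes, 34.0 CPM (22.0 to 50.2), was above the homeostatic 19.2 CPM. In the Ccl2 and Ccl12 gate the B cell markers Cd79a and Ms4a1 were at 0 UMIs and Cd79b at 23.8 CPM.

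The bases before the start of Cd72 and Havcr2 are shown because, of the 6 members matched to a RefSeq promoter window, these 2 held the PU.1 box GAGGAA (in capitals, or its reverse complement TTCCTC). PU.1 is the myeloid and B cell transcription factor. Both windows end at the base before the RefSeq start and are written 5′ to 3′ on the gene's strand. The Cd72 window is chr4:43454627-43454876, minus strand, and the Havcr2 window chr11:46454681-46454930, plus strand.
Cd72: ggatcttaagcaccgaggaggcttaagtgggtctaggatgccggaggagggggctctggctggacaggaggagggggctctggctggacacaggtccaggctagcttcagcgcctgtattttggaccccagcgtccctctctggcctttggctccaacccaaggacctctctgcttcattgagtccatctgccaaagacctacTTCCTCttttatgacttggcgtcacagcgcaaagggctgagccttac
Havcr2: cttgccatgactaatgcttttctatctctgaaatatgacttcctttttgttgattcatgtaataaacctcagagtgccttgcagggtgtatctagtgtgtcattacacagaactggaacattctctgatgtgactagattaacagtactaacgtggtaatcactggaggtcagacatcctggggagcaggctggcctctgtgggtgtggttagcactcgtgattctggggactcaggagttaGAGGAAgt
The box starts 47 bases before the start in Cd72, on the opposite strand, and 8 bases before it in Havcr2. It is a match of letters, held by 23.3% of all windows, and not evidence of binding. The windows of Vsir, Cd47, Tigit and Cd274 held none of the 3 motifs.

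**Figure D3:**
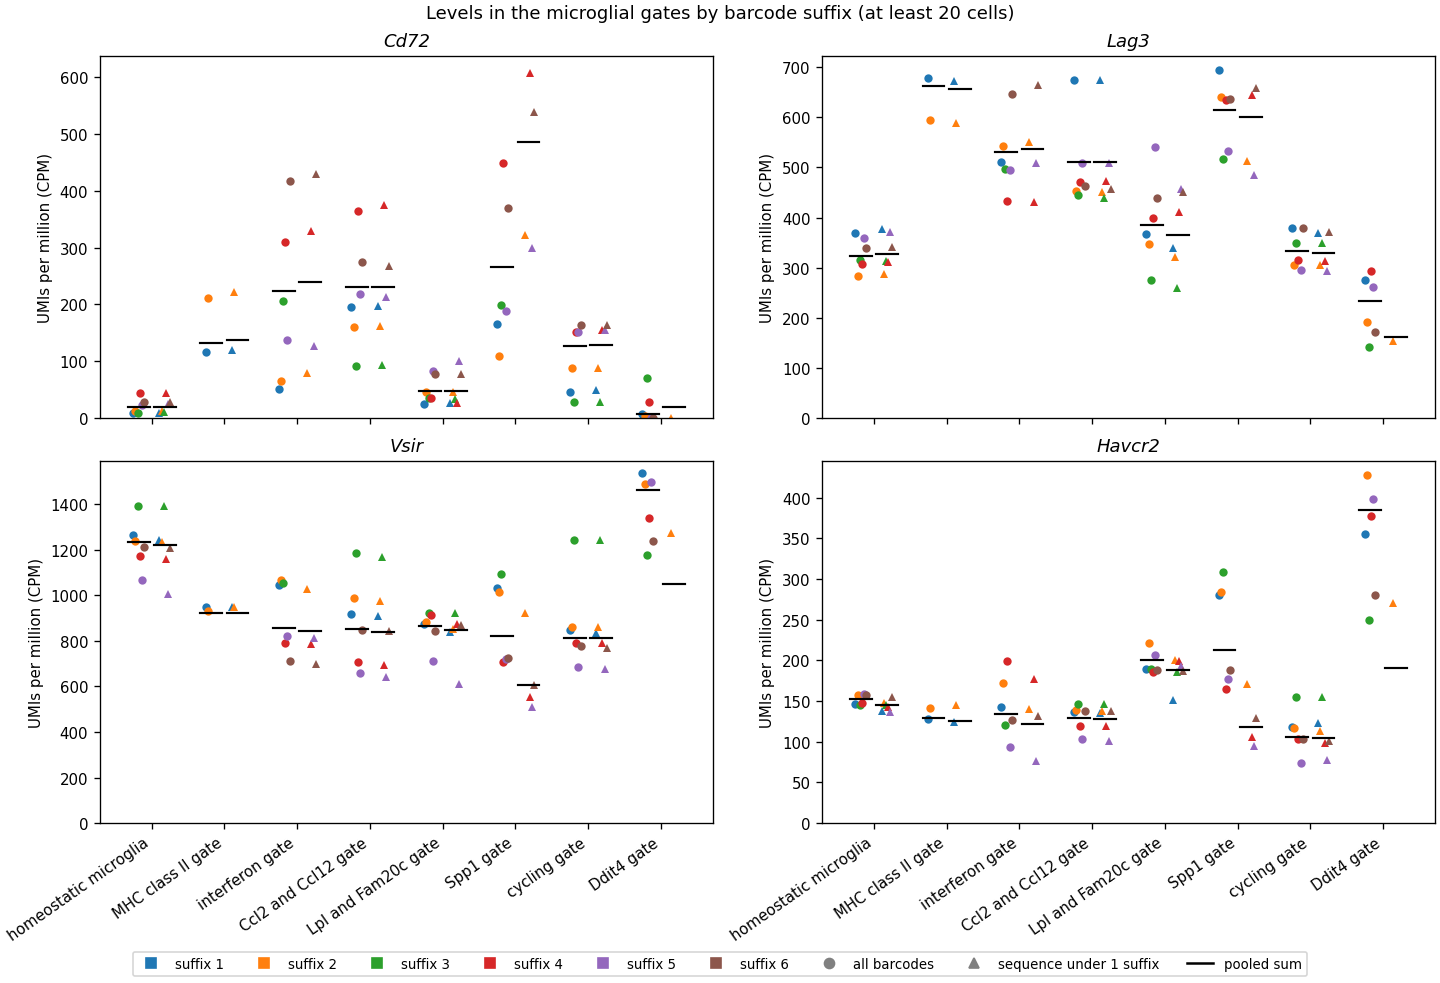
CPM of Cd72, Lag3, Vsir and Havcr2 in homeostatic microglia and the 7 state gates, 1 point per suffix with at least 20 cells (colour), circles for all kept barcodes and triangles for sequences under 1 suffix; black bars are the pooled sums. Cd72 is low in homeostatic microglia and spread widely in the Ccl2 and Ccl12, interferon and Spp1 gates, and the high Havcr2 circles of the Ddit4 gate have only 1 triangle beside them.

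Lilrb4a (chr10:51490956-51496611, plus strand) was scarce in homeostatic microglia and less so in the Lpl and Fam20c gate, the Spp1 gate and recruited cells. Homeostatic microglia held 82 UMIs, 1.64 CPM (1.31 to 2.04; suffixes 0.911 to 2.07). The Lpl and Fam20c gate had 28.9 CPM (22.7 to 36.4), suffixes 12.2 to 41.3 around 30.3, a ratio of 17.6 (12.6 to 24.4), and 17.4 without shared sequences. The Spp1 gate had 24.3 CPM (19.0 to 30.6; suffixes 15.3 to 29.0), a ratio of 14.8 (10.6 to 20.5), and 11.2 (6.68 to 18.1) without shared sequences. In both gates every suffix lay above every suffix of homeostatic microglia. The Ccl2 and Ccl12 gate held 5.33 CPM (3.24, 2.06 to 4.98, higher in 6 of 6), under the 10 CPM limit. Monocytes had 48.1 CPM (34.9 to 64.5), the Cd209a gate 47.7 CPM (33.8 to 65.5) and granulocytes 32.3 CPM (16.1 to 57.8), with overlapping intervals. The gene has a near copy: 90.7% of the 1231 distinct 98-base windows in the last 1000 bases of its coding transcripts also occur in Lilr4b or the overlapping Gm49339, so reads of the 2 genes could not be told apart over most of that stretch and the Lilrb4a level is uncertain. For the other 9 members 0 such windows were found in another gene. Lilr4b itself had 266.6 CPM in monocytes, 261.2 in the Cd209a gate, 25.7 in the Lpl and Fam20c gate and 1.06 in homeostatic microglia.

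Cd52 (chr4:134082448-134095082, minus strand) was highest in NK cells and recruited cells. Homeostatic microglia had 138.6 CPM (135.4 to 142.0; suffixes 118.7 to 168.2, median 144.3). NK cells had 2043 CPM (1938 to 2151), with 1580, 1972 and 2166 CPM in their 3 suffixes, a ratio of 14.7 (13.9 to 15.6). Monocytes had 1748 CPM (1663 to 1836; ratio 12.6), the Cd209a gate 1632 CPM (1545 to 1723; 11.8) and granulocytes 960.6 CPM (859.3 to 1071; 6.93). At 500 UMIs per cell, 60.8% (54.0 to 67.4%) of NK cells and 6.16% (5.81 to 6.52%) of homeostatic microglia held a Cd52 UMI, and 2.41% (0.972 to 4.89%) of choroid plexus-like barcodes. Of the 7 states, the Spp1 gate (355.6 CPM, 2.56, 2.40 to 2.74) and the interferon gate (329.9 CPM, 2.38, 2.14 to 2.64) were called, each higher in 6 of 6 suffixes. Without shared sequences their ratios were 2.77 and 2.38, each higher in 4 of 4 suffixes. The MHC class II, Ccl2 and Ccl12, Lpl and Fam20c, and cycling gates lay between 228.2 and 239.3 CPM, ratios of 1.65 to 1.73, and the MHC class II gate passed with stricter gates (2.01) and without suffix 1 (2.36). The Ddit4 gate stood at 109.8 CPM (0.792, 0.670 to 0.930) with all barcodes and at a ratio of 1.09 (0.623 to 1.77) without shared sequences.

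Counted by gate, the members with at least 10 CPM on either side were set beside all genes that met the same limit. That filter passed 7 to 9 of the 10 members, so a member that entered only through the gate in which it is high had to differ there. In the MHC class II gate 2 of 7 members were called higher (Cd72 and Lag3) against 1.27% of all genes, and in the interferon gate 2 of 7 (Cd72 and Cd52) against 2.14%. The Ccl2 and Ccl12 gate had 1 of 7 (Cd72, against 1.34% of all genes), the Lpl and Fam20c gate 2 of 9 (Lilrb4a and Cd274, 2.49%) and the Spp1 gate 3 of 8 (Cd72, Cd52 and Lilrb4a, 3.55%). Lilrb4a and Cd274 lay under 10 CPM in homeostatic microglia, so both entered only through the gate, and of the other 7 members 0 were called in the Lpl and Fam20c gate. In the cycling gate 1 of 7 was higher (Cd72, 6.66%), and in the Ddit4 gate 1 of 7 (Havcr2, 1.72%). No member was called lower in a microglial state with all barcodes, where the share of all genes called lower was, in the same order of gates, 1.67%, 0.862%, 0.239%, 0.890%, 3.15%, 0.767% and 2.88%. Medians were taken over the 7 members with at least 10 CPM in homeostatic microglia, a limit that does not use the level in the gate. Their median log2 ratio ran from -0.34 in the Ddit4 gate to 0.71 in the interferon gate, beside -0.12 to 0.08 for all genes of the same limit. Without shared sequences the median turned from -0.34 to 0.11 in the Ddit4 gate and from 0.48 to -0.30 in the Spp1 gate.

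Without shared sequences the members called were the same in 5 of these 7 states. The shares of all genes called higher there were 1.31% in the MHC class II gate, 2.41% in the interferon gate, 1.35% in the Ccl2 and Ccl12 gate, 2.35% in the Lpl and Fam20c gate and 6.45% in the cycling gate, and the shares called lower 1.72%, 1.27%, 0.239%, 0.774% and 0.706%. The Spp1 gate kept 3 of 8 higher (3.23% of all genes) and gained Vsir as lower (3.76%). The Ddit4 gate, then with 1 suffix of at least 20 cells, had 0 of 8 higher (6.83%), where Havcr2 was lost, and 1 lower (Lag3, 6.87%).

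In cells other than microglia larger shares of all genes were called. Granulocytes had 4 of 8 members higher (7.55% of all genes) and 1 lower (15.8%). NK cells had 3 of 7 higher (13.2%) and 3 lower (8.41%), and the Cd209a gate 3 of 8 higher (19.3%) and 4 lower (20.9%). Monocytes had 5 of 9 higher (16.2%) and 3 lower (17.6%). Cd47 and Cd52 were called higher in all 4 of these gates, of which the Cd209a gate and monocytes are not separate by monocyte markers. Without shared sequences the counts were the same apart from Havcr2, no longer lower in granulocytes. The shares of all genes were then 7.25% higher and 15.1% lower in granulocytes, 17.0% and 9.90% in NK cells, 19.2% and 20.8% in the Cd209a gate, and 15.9% and 17.1% in monocytes. Over the 7 members with at least 10 CPM in homeostatic microglia, the median log2 ratio was -0.04 in granulocytes, -0.46 in NK cells, -1.31 in the Cd209a gate and -0.915 in monocytes, beside -0.40, 0.03, -0.15 and -0.165 for all genes. With 10 CPM on either side, the median was 0.51 in granulocytes and 1.43 in monocytes, where Lilrb4a, and in monocytes also Cd274, entered through the gate.

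Many barcodes in these gates also held RNA of a list of microglial transcripts, among them C1qa, C1qb, C1qc, Cst3 and Ctss. This RNA took over 1% of the UMIs in 43.8% of NK cells, 58.3% of granulocytes, 47.4% of monocytes and 18.8% of the Cd209a gate. RNA of this list is called microglial RNA here. Whether it came from microglia or from the cells' own expression was not tested, so the split below may also follow the state of the cells. In the 122 NK cells under 1%, Sirpa was 1 UMI (4.26 CPM, 0.108 to 23.7), Havcr2 was 0 UMIs, with an interval up to 15.7 CPM, and Lag3 was 7 UMIs (29.8 CPM, 12.0 to 61.4). In the 86 NK cells over 3%, the same genes had 449.6, 85.7 and 356.9 CPM. Lag3 in NK cells was 0.726 of homeostatic microglia over the whole gate and 0.0920 in the cells with little microglial RNA, where it was lower in 2 of 2 suffixes. Vsir had 732.3 CPM over 3% and 89.5 CPM (55.4 to 136.8) under 1%.

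Cd72 depended on the same split. Under 1% microglial RNA it was 13.2 CPM (4.83 to 28.7) in monocytes, from 6 UMIs, and 13.9 CPM (0.352 to 77.5) in granulocytes, from 1 UMI, against 238.5 and 159.0 CPM over 3%. The ratio in monocytes went from 5.01 over the whole gate to 0.687. Both intervals under 1% lie on both sides of the homeostatic 19.2 CPM, so neither gate gives a direction there. In monocytes the interval under 1% lay below that of the whole gate, 77.1 to 118.5 CPM. NK cells under 1% still held 21 Cd72 UMIs, 89.5 CPM (55.4 to 136.8), a ratio of 4.67, against 261.9 CPM over 3%. These ratios divide by the pooled homeostatic level. Suffixes 4 and 6 gave 73 and 104 of the 217 NK cells, and 76 and 84 of the 215 monocytes. Homeostatic Cd72 in these suffixes lay above the pooled level, with 44.8 CPM in suffix 4. Ratios within a suffix were not taken for this split. Across the split, Cd52 and Cd47 moved the other way from Cd72. In NK cells they were 3353 CPM (3123 to 3595) and 707.2 CPM (603.7 to 823.3) under 1%, and 1231 and 345.3 CPM over 3%. Granulocytes under 1% (48 cells) had 1905 CPM of Cd52, 612.0 CPM of Cd47 and 111.3 CPM of Lilrb4a (48.0 to 219.2, 8 UMIs). Havcr2 (74.6 CPM), Vsir (368.8 CPM) and Sirpa (259.0 CPM) were still counted in the 113 monocytes under 1%. Lag3 was 7 UMIs there, 15.4 CPM (6.18 to 31.7), against 318.0 CPM in monocytes over 3%. In granulocytes Lag3 was 1 UMI under 1%, 13.9 CPM (0.352 to 77.5), against 401.4 CPM over 3%.

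**Figure D4:**
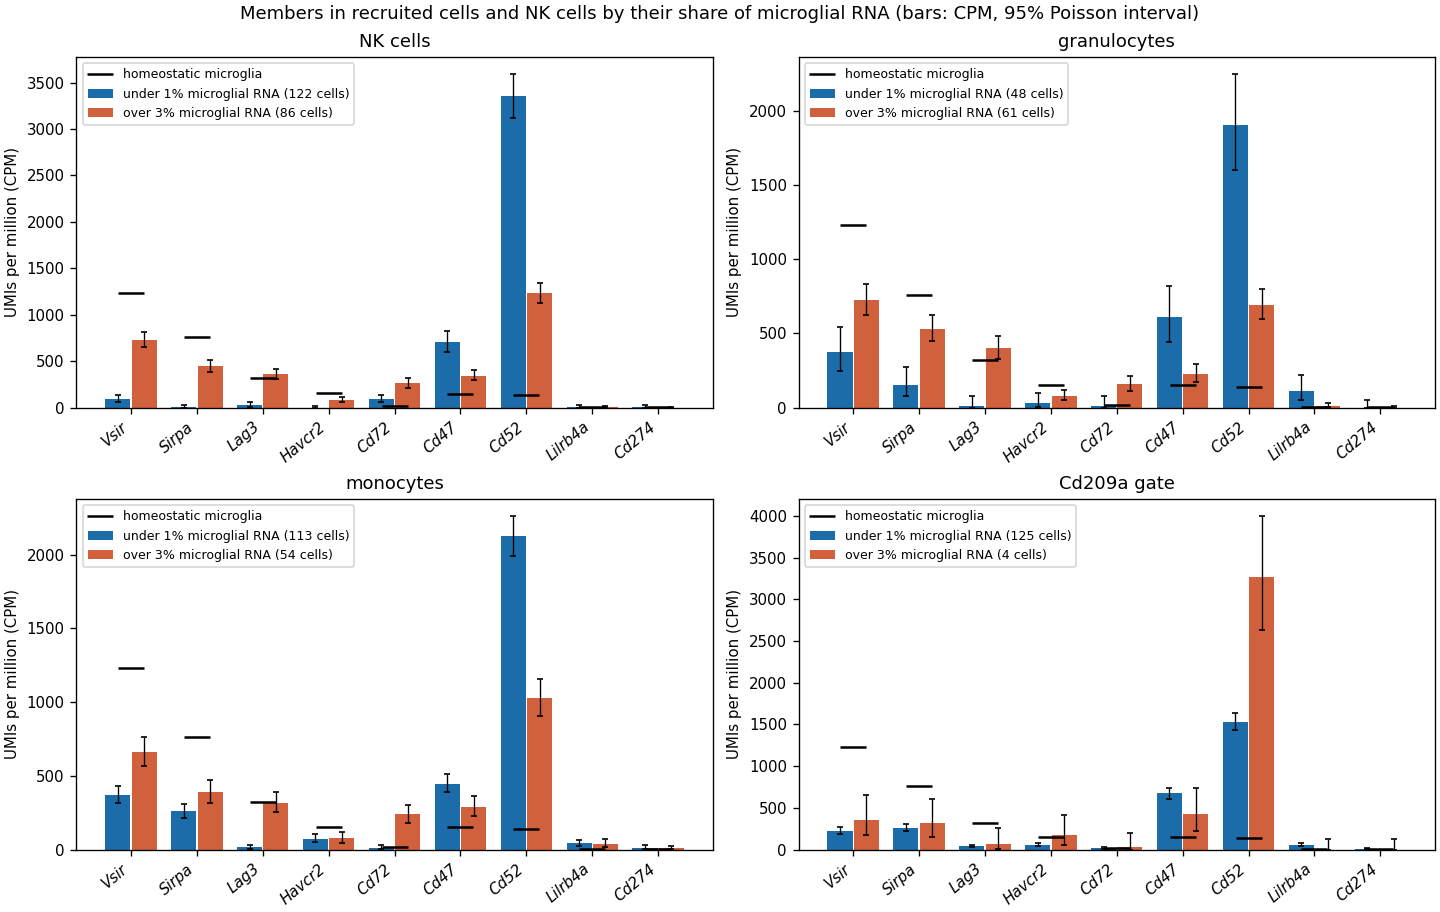
CPM of 9 members in NK cells, granulocytes, monocytes and the Cd209a gate, split by the share of UMIs on the list of microglial transcripts (blue under 1%, orange over 3%), with exact Poisson 95% intervals as error bars and black ticks for homeostatic microglia. In the first 3 panels Vsir, Sirpa, Lag3 and Cd72 are higher in the orange bars and Cd47 and Cd52 in the blue ones; the Cd209a gate has only 4 cells over 3%.

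Partners of the members were read from a list of 52 genes found in the matrix. All partner values and calls are over all kept barcodes, and none was recomputed without shared sequences. Those made up 96.2% of the Ddit4 gate, 77.2% of the Spp1 gate and 27.9% each of the interferon and Lpl and Fam20c gates. Among ligands and counter-receptors 9 of 20 reached 50 CPM in a gate, among receptors of T and NK cells 3 of 8, among other myeloid inhibitory receptors 16 of 18, and among adaptors and phosphatases 5 of 6. Pdcd1, the receptor of PD-L1, had 31.4 CPM in homeostatic microglia and 63.8 to 74.9 CPM in the MHC class II, Lpl and Fam20c, Ccl2 and Ccl12, Spp1 and cycling gates, ratios of 2.03 to 2.39, each called higher. In NK cells, whose Tigit count was 0, the inhibitory receptors Klrc1 (307.0 CPM) and Klrg1 (109.0 CPM) were abundant. Lgals9, a ligand of TIM-3, had 165.3 CPM in homeostatic microglia and 274.3 CPM in the interferon gate (ratio 1.66). H2-T23, the ligand of the Klrc1 receptor, was called higher in the MHC class II gate (382.1 CPM, 2.88) and the interferon gate (319.2 CPM, 2.41). Sirpb1b and Sirpb1c, activating relatives of Sirpa, had 121.3 and 234.9 CPM in monocytes. Partners were called higher in 1 (Ddit4 gate) to 7 (Spp1 gate) of 27 to 31 tested in microglial states, and in 6 of 35 (NK cells), 11 of 36 (granulocytes), 15 of 36 (monocytes) and 17 of 38 (Cd209a gate) elsewhere. As for members and all genes, a partner was tested with at least 10 CPM on either side. A partner that entered only through the gate in which it is high had to differ there. Called lower were 0 to 2 in the microglial states, 4 in granulocytes, 6 in monocytes and 9 each in NK cells and the Cd209a gate. Of all genes, 13.2% were called higher and 8.41% lower in NK cells, 7.55% and 15.8% in granulocytes, 16.2% and 17.6% in monocytes, and 19.3% and 20.9% in the Cd209a gate. In the microglial states the share of all genes called higher was 1.27 to 6.66%, with 1.72% in the Ddit4 gate and 3.55% in the Spp1 gate. The share called lower there was 0.239 to 3.15%.

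The genes whose pattern over the 12 gates was most like a member were ranked by Pearson's r of log2(CPM + 10) among 4579 genes with at least 50 CPM in a gate. Each point sums many cells of the same 6 libraries, so r is a description. Vsir was most like Gpr155 (r = 0.988), Fos (0.982) and Ctc1 (0.981), and Sirpa like Atf3 (0.963), Mef2c (0.952) and Acox3 (0.948). Lag3 was most like Itm2b (0.966), Selenop (0.966) and Man2b2 (0.959), and Havcr2 like Abcd2 (0.971), Atp6ap1 (0.966) and Rcan1 (0.955). Cd72 had the lowest of these values, with C4b (0.908), Cxcl10 (0.824) and Gas6 (0.820). Cd47 was most like Ifi47 (0.966), Taf13 (0.956) and 2310011J03Rik (0.942), and Cd52 like Ndufa13 (0.984), Cox8a (0.974) and Sema4a (0.972). All these values are over all kept barcodes. Between members, r was 0.65 for Havcr2 and Sirpa, 0.83 for Vsir and Sirpa, 0.87 for Cd47 and Cd52, and -0.89 for Sirpa and Cd52. Without shared sequences the same pairs had 0.93, 0.91, 0.84 and -0.95.

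At 500 UMIs per cell, 72.2 to 80.2% of the cells of each gate held a UMI of at least 1 member, and 28.9% of choroid plexus-like barcodes did. At least 2 members were found in 31.6% of homeostatic microglia and 30.9% of NK cells, and at least 3 in 6.94 and 4.15%.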

How the data were processed

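CD45+ cells of 6 mice were sequenced with 10x 3′ chemistry. The authors aligned reads to mm10 and joined 6 libraries with Cell Ranger (3.1.0 in the matrix header), and the matrix they deposited holds raw UMI counts per gene and barcode, whole numbers for barcodes called as cells, before the limits on genes and mitochondrial share. The submitters' processing notes also name Seurat 3.1.5. How the counting used strand is not given in the sources used here, and Vsir, Cd72 and Cd52 each overlap a gene on the other strand (Cdh23, Tesk1 and Crybg2). Libraries appear as 6 barcode suffixes that no GEO label ties to a mouse or batch, and they were not assigned by their numbers of barcodes, so the matrix was treated as 1 pooled sample and no p-value was computed. Columns of per-sample values left out numbered 0.

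Members and gene lists were chosen with earlier results of these data known, and gate limits were set after the distributions of the marker genes were seen. Within each gate UMIs were summed, divided by all UMIs of the gate and scaled to 1000000 (CPM), with exact Poisson 95% intervals. Ratios to homeostatic microglia have conditional exact intervals. Intervals and floors (3 counts over the gate) cover counting error only. A call asked for 2-fold in the pooled sum and the same direction in each suffix with at least 20 cells, and the gate's own markers were left out of the counts over all genes. Shares of cells were taken after thinning to 500 UMIs; the shallowest kept barcode had 500. Doublets were not removed, and an alternative removed the 5% of barcodes with the highest Scrublet score in each suffix.

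All 10 members were named. Partners were named from those with at least 50 CPM in a gate, and the 3 most alike genes for each member with at least 50 CPM. Alternatives were planned for gate limits, barcode filters, microglial RNA, doublets, scaling, each suffix and the low-value filter, and the sequence comparison between suffixes and the medians over genes with at least 10 CPM in homeostatic microglia were added after the data were seen. On simulated counts with the cell numbers and depth of each gate, 90.4 to 100% of genes changed 4-fold were called, and 0 to 5.40% of unchanged genes. The simulated counts held counting error only, with the same proportions in every suffix, so these shares do not cover differences between suffixes or cells. Changes of 2-fold, the limit of a call, were not simulated. Python 3.11.15, numpy 2.4.6, scipy 1.17.1, pandas 2.3.3, scanpy 1.11.5 and matplotlib 3.10.9 were used, with gene positions from the GENCODE M21 annotation and promoters from RefSeq, both on GRCm38. Some members of the marker lists are not reported here.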

Additional observations from a re-analysis of the deposited data

Results flagged for a closer look

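Among the 1660 barcodes that the filters left out, Cd72 stood at 226.6 CPM, against 82.9 CPM over kept barcodes, and Cd52 at 502.7 CPM, against 228.6 CPM. These values were singled out because they come from barcodes that no comparison used. Of those barcodes, 893 had over 2500 genes and 762 had too high a share of mitochondrial UMIs. Which of these carries the signal was not tested.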

How the results depend on the processing

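Of 38 member ratios called, 29 stayed called in the same direction under each of 17 alternatives that gave a value. Over 1412 ratios recomputed, 1367 kept direction and side of the 2-fold limit, 21 no longer passed it or the 10 CPM filter, 22 newly passed and 2 reversed. Both reversals, read from the ratio alone, were Cd72 in monocytes, with a ratio of 0.687 under 1% microglial RNA and 0.486 when that was joined with sequences under 1 suffix. The 0.687 rests on 6 UMIs, with an interval of 4.83 to 28.7 CPM on both sides of the homeostatic 19.2 CPM. The number of members past 2-fold moved in the MHC class II gate to 4 with stricter gates and 4 with all genes with a UMI, in the Ccl2 and Ccl12 gate to 3 and 2, in the Lpl and Fam20c gate to 1 with stricter gates and 1 without the top Scrublet scores, and in the Ddit4 gate to 0 with at least 1000 UMIs. With each suffix left out in turn it ran from 1 to 3 in the MHC class II gate (1 without suffix 2), from 1 to 3 in the Lpl and Fam20c gate (1 without suffix 3 or suffix 5) and from 1 to 2 in the Ddit4 gate (2 without suffix 3). The cause of these moves was not tested. Counts in the other gates stayed within 1.5 times. Pairs of member and gate with at least 10 CPM numbered 90, and 88 to 93 over the alternatives. No paired analysis was possible because no label ties a barcode suffix to a sample, and suffixes were not assigned by their size. The depth limits Cd274 and Tigit most. The Lilrb4a count is low too, but 90.7% of its windows also occur in Lilr4b or Gm49339. How much of its low count comes from depth and how much from reads that could not be told apart was not tested.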
